A study of Homo sapiens with 10 samples.

Results

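LMO3, ROR1, DUSP6, MYBPH and OCLN are 5 genes that earlier work on lung adenocarcinoma describes as targets of the transcription factor TTF-1. Binding at these genes was taken from the 7 called peak lists of a chromatin immunoprecipitation sequencing (ChIP-seq) study of TTF-1, Smad3 and Smad4, as every peak that shares at least 1 bp with a window set around each gene. The windows, on genome build hg18 with positions counted from 1, were chromosome 12, 16550001 to 16700000 for LMO3, chromosome 1, 63980001 to 64450000 for ROR1, chromosome 12, 88240001 to 88300000 for DUSP6, chromosome 1, 201380001 to 201440000 for MYBPH and chromosome 5, 68790001 to 68920000 for OCLN. They span 870 kb and held 103 of the 79601 peaks of all lists. Within the windows, every peak was taken by its position.

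TTF-1, also called NKX2-1, is a homeodomain transcription factor that maintains the identity of lung epithelium and is retained in many lung adenocarcinomas. Smad3 is activated by TGF-β receptors, joins Smad4 and enters the nucleus, where other bound factors help to decide which sites it occupies. LMO3 is a LIM-only protein that bridges transcription factors, ROR1 is a receptor tyrosine kinase-like protein that supports survival signalling, and DUSP6 is a phosphatase that switches off ERK. MYBPH binds the actomyosin machinery and restrains cell motility, and OCLN (occludin) is a membrane protein of tight junctions.

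The libraries were Smad3 in H441 cells in which TTF-1 was depleted by siRNA (siTTF-1) or which received a control siRNA (siControl), TTF-1 in H441 cells at 1.5 h and 0 h, Smad4 in H441 cells given siTTF-1 or siControl, and Smad3 in A549 cells. H441 and A549 are lung adenocarcinoma lines that are positive and negative for TTF-1, per the labels, and all cells are described as treated with 1 ng/ml TGF-β3 for 1.5 h, including those of the library titled 0 h, and whether the 0 h cells received it cannot be told. The TTF-1 libraries name no siRNA, so a siTTF-1 Smad3 peak described below as having TTF-1 lies at a TTF-1 site of other cells. Each group had 1 library, with 3 input DNA libraries as controls, which leaves every difference between conditions without a replicate check and without a test across samples. The lists hold no read counts, so depth is unknown, and no RNA was measured, so neither the cell lines nor the depletion of TTF-1 nor the expression of the 5 genes could be checked.

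A peak in these lists has a position, a peak number and a constant score. The numbers run from 1 to the length of the list (21291 for TTF-1 1.5 h, 31083 for TTF-1 0 h, 14145 for Smad3 siTTF-1, 8941 for Smad3 siControl, 1605 for Smad4 siTTF-1, 1 for Smad4 siControl and 2535 for A549). What the number stands for is not stated. Across the peaks of a list it fell with width, with Spearman correlations between -0.46 and -0.63 in the 6 longer lists. A peak number is given below as a place within its own list, where a low number is the head, and places in lists of different lengths are set side by side without reading a change from them. The false discovery rate limit was 1% for the H441 Smad3 and TTF-1 lists, 10% for Smad4 and 5% for A549.

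The hg18 sequence under the peaks was not used here, so the annotated RefSeq promoters of the genes (build GRCh38.p14, 250 bases before to 50 after the start) are shown instead. Homeodomain factors of the NKX2 class bind sites with a CAAG core, and capitals mark CAAG on either strand (CTTG on the strand shown). MYBPH is shown because its window had the most TTF-1 peaks per Mb, and DUSP6 because its window had those nearest the head of the lists. Start 3 of 5 annotated LMO3 starts, counted from upstream, is shown because it, like MYBPH, holds the longer form CTCAAG. The positions of these promoters are on GRCh38.p14 and cannot be set against the hg18 peak positions.
MYBPH promoter, chr1:203175777-203176076, minus strand: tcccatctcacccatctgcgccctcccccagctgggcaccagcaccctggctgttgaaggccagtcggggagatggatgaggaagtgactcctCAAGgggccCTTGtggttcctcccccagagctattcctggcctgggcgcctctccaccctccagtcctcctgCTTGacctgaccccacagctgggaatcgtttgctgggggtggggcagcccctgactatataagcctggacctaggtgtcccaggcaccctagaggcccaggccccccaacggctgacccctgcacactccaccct
DUSP6 promoter, chr12:89352452-89352751, minus strand: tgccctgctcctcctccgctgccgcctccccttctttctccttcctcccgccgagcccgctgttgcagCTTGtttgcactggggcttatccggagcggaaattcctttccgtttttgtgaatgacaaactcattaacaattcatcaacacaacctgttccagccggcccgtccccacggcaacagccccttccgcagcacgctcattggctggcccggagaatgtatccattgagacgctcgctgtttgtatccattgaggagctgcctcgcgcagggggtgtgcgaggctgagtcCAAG
LMO3 promoter, start 3, chr12:16606113-16606412, minus strand: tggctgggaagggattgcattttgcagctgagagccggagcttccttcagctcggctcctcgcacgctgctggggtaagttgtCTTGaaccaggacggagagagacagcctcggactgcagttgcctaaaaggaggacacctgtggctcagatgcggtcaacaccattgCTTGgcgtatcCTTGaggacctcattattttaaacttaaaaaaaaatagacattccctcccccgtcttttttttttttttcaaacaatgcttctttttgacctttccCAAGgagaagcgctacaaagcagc
The MYBPH promoter held 3 CAAG cores, the DUSP6 promoter 2 and this LMO3 promoter 4. All 5 genes matched the RefSeq table, with 10 promoters (some of them overlapping), of which 9 held CAAG, against 86% of 35116 promoters. CTCAAG was present in 2 of the 10, against 12.4% of all promoters, the Smad-binding letters CAGAC in 2, against 45.3%, and the AP-1 letters TGANTCA in none, against 7.71%. Each was searched on both strands, and every CTCAAG contains a CAAG. The shares of CAAG and CTCAAG were near those of all promoters, and a match is a run of letters and not a bound site.

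TTF-1 was called in all 5 windows at both times. Of stretches of a window's length laid end to end over every chromosome, many held a TTF-1 peak too. At 1.5 h and 0 h the shares were 69.4% and 74.7% for ROR1, 43.7% and 52.1% for LMO3, and 40.2% and 48.6% for OCLN. For MYBPH and DUSP6 they were 24.9% and 32%. The windows held 28 TTF-1 peaks at 1.5 h and 36 at 0 h, which is 32.2 and 41.4 peaks per Mb, against 7.03 and 10.3 peaks per Mb over all chromosomes. The genes and windows were chosen with earlier results of these data known. These densities and those of Smad3 are therefore a description and not a test, and the chromosome means include gaps in the assembly. Smad3 had 19 peaks in siTTF-1 cells and 19 in siControl cells (21.8 per Mb each, against 4.67 and 2.95 over all chromosomes). The counts were 10 and 19 with the lists shortened to equal length, and 6 and 12 without the ROR1 window. Smad4 had 1 peak in siTTF-1 cells and 0 in siControl cells, and A549 Smad3 had 0. Overlapping peaks of all lists joined into 42 sites, of which 36 held TTF-1, against 83.5% of all sites.

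**Figure D1:**
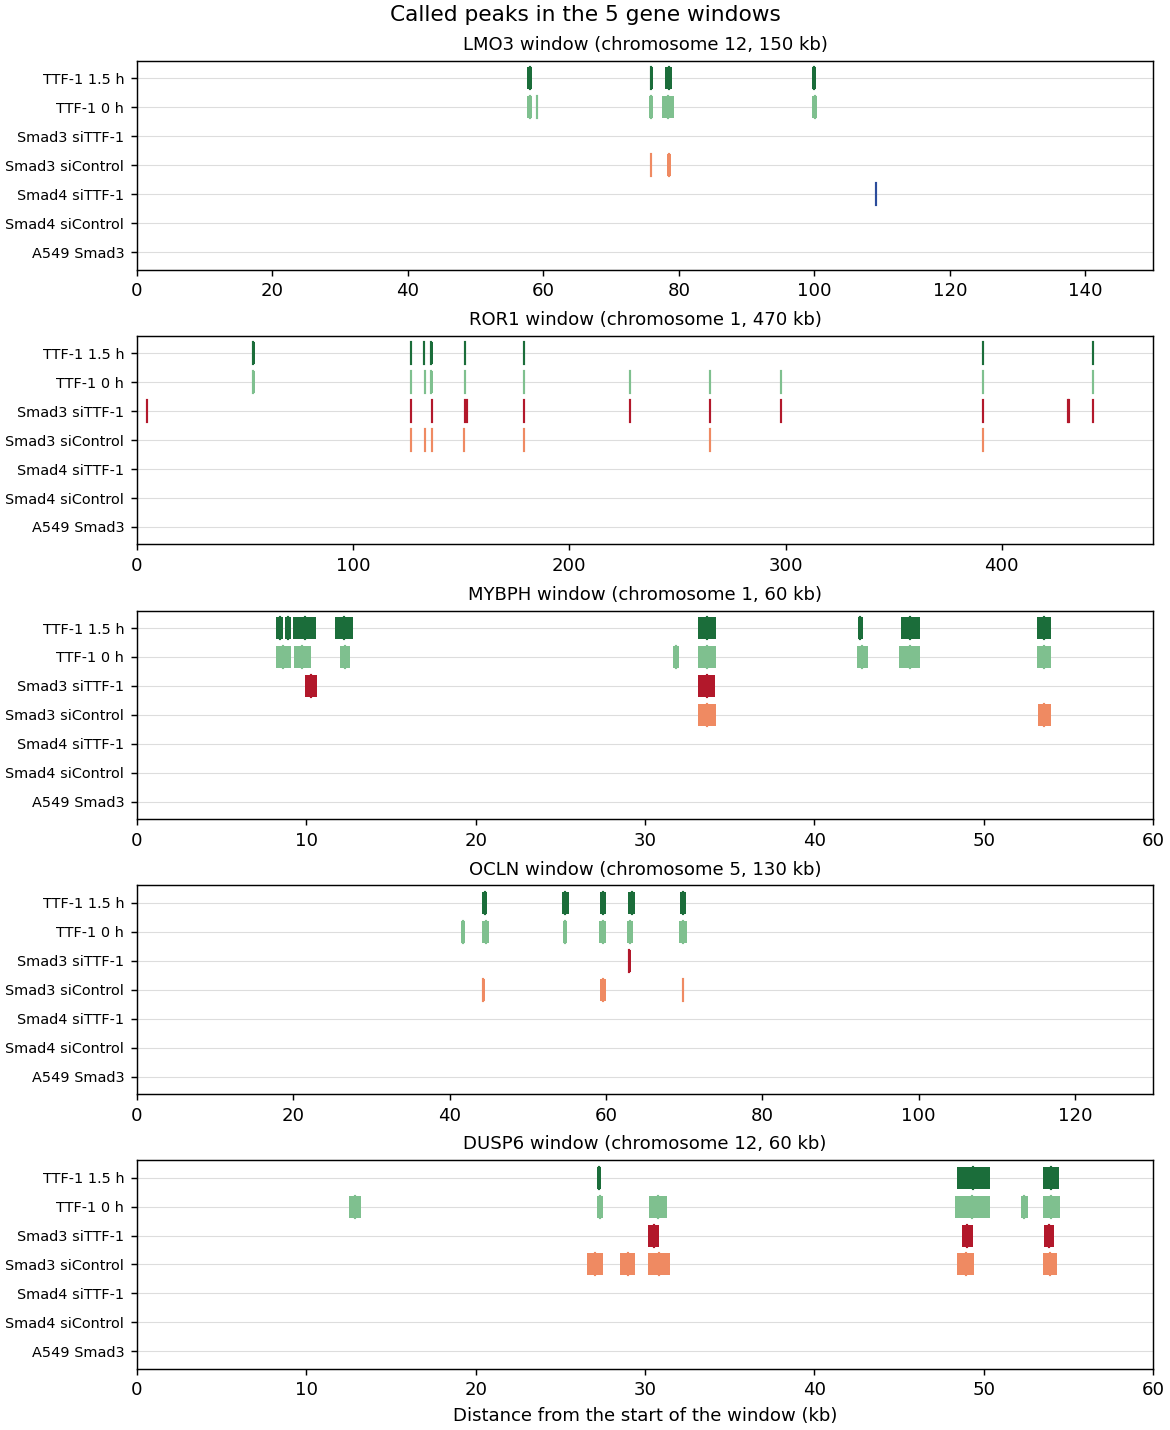
Called peaks in the 5 windows, with a row for each list and the distance from the start of the window in kb on the x axis. Bars are peaks to scale, drawn with a minimum line width, and TTF-1 peaks appear in all 5 windows while no Smad3 siTTF-1 peak was called in the LMO3 window and no A549 peak in any.

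**Figure D2:**
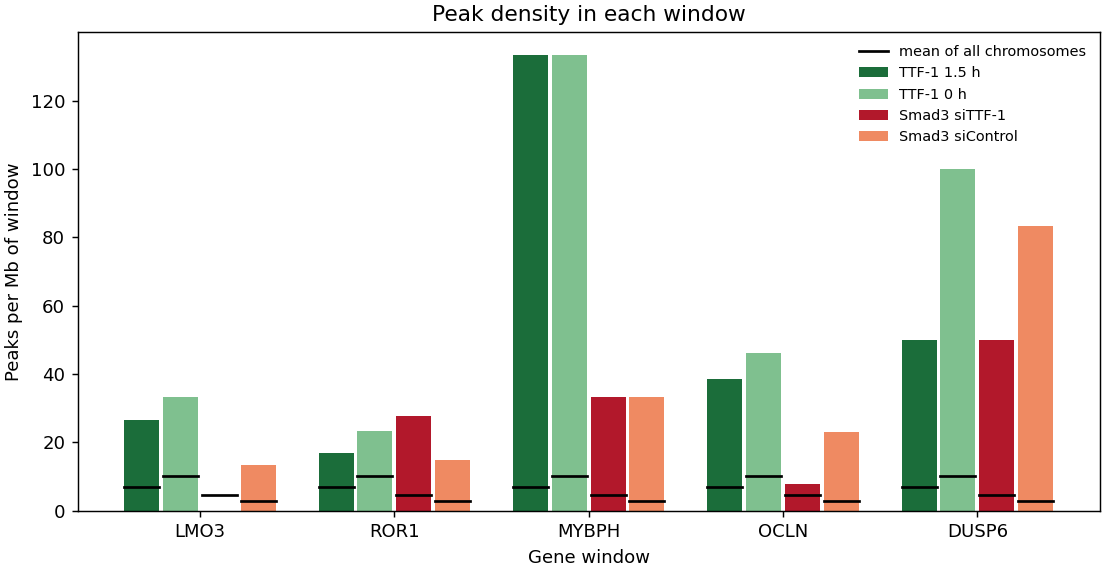
Peaks per Mb of each window for the TTF-1 and H441 Smad3 lists (bars) and the mean of the same list over all chromosomes (black lines). MYBPH has the highest TTF-1 bars at 133.3 peaks per Mb and DUSP6 the highest Smad3 bars, and the LMO3 bar for Smad3 siTTF-1 is 0.

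The LMO3 window showed TTF-1 with Smad3 that was called in siControl cells alone. TTF-1 had 4 peaks at 1.5 h and 5 at 0 h, within 42.5 and 42.7 kb in the middle of the window, and 8.88% and 10.1% of all tiles held at least as many peaks, where tiles are stretches of the window's length laid end to end over every chromosome. Smad3 had 0 peaks in siTTF-1 cells and 2 in siControl cells, and 10.4% of tiles held 2 or more siControl peaks while 33.2% held any siTTF-1 peak.

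The first of these Smad3 sites lay at 16625651 to 16626149. TTF-1 stood there at number 1863 at 1.5 h and 1763 at 0 h, 8.75% and 5.67% down their lists, with widths of 449 and 499 bp. The siControl Smad3 peak inside it was number 8794 of 8941, 349 bp wide, with its centre 0 bp from that of the 1.5 h peak. A site near the head of the TTF-1 lists thus carried a Smad3 peak from the very end of the siControl list.

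The second Smad3 site lay at 16627501 to 16629299. Its TTF-1 peaks were number 4569 at 1.5 h and 2559 at 0 h, and they were 999 and 1799 bp wide, a difference of -800 bp that was the largest narrowing among the matched TTF-1 peaks of the windows. The siControl Smad3 peak was number 6581 and 699 bp wide. With 0 siTTF-1 peaks in the window, both Smad3 sites were called in siControl cells alone, as were 19.2% of all siControl peaks and 26% and 36.3% of those in the 2 steps of 20% of the list where these peaks stood.

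The other LMO3 sites had no Smad3. TTF-1 was called at both times at 16607651 to 16608349 (numbers 12843 at 1.5 h and 11417 at 0 h) and at 16649651 to 16650399 (16209 and 12210), and at 0 h alone at 16608851 to 16609249 (22086). The 1 Smad4 siTTF-1 peak of the 5 windows lay 109 kb into the LMO3 window at 16659051 to 16659199. It was number 1423 of 1605 and 149 bp wide, and overlapped no peak of another list, and 6.79% of tiles of this length held a Smad4 siTTF-1 peak. MGST1, a microsomal glutathione transferase gene, overlaps LMO3 in the RefSeq annotation, and peaks were not assigned to either.

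The ROR1 window held the most Smad3 peaks after TTF-1 depletion. Smad3 had 13 peaks in siTTF-1 cells and 7 in siControl cells, and 1.16% and 3.53% of tiles of this length held at least as many. TTF-1 had 8 peaks at 1.5 h and 11 at 0 h, within 389.6 and 389.7 kb, and 13.1% and 13.4% of tiles held at least as many. By share of tiles, the TTF-1 count was therefore the least unusual of the 5 windows, and the Smad3 siTTF-1 count the most unusual in that list. Per Mb of window, Smad3 siTTF-1 peaks were denser at DUSP6 (50) and MYBPH (33.3) than at ROR1 (27.7).

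A run of 5 shared sites lay between 64106301 and 64159449. TTF-1 peaks there were numbers 708 to 3740 at 1.5 h and 648 to 3504 at 0 h, all within the first 20% of both lists, and Smad3 siControl peaks were numbers 1289 to 3826. Of these 5 sites, 4 also had a Smad3 siTTF-1 peak. The exception was 64112551 to 64113499, where TTF-1 was number 1544 at 1.5 h and 1798 at 0 h and Smad3 siControl was number 2254.

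The site at 64115601 to 64116849 had the earliest TTF-1 place of the window at 1.5 h. Its TTF-1 peaks were number 708 at 1.5 h and 648 at 0 h, 1249 and 1199 bp wide. Smad3 there was number 7768 in siTTF-1 cells and 1959 in siControl cells, and 349 and 699 bp wide. The Smad3 peak was thus narrower in siTTF-1 cells at a site where TTF-1 was near the head of both TTF-1 lists. The reverse held at 64131201 in the same run. TTF-1 stood 9.92% and 9.12% down its lists there, and the Smad3 peak was wider in siTTF-1 cells by 250 bp.

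The earliest Smad3 place of the window was at 64371201 to 64371849. Smad3 was number 1227 in siTTF-1 cells and 686 in siControl cells, with the siTTF-1 peak wider by 100 bp, and TTF-1 was number 5250 at 1.5 h and 5472 at 0 h. The centres of the siControl Smad3 and the TTF-1 1.5 h peaks coincided. The Smad3 peaks stood 8.67% and 7.67% down their lists and the TTF-1 peaks 24.7% and 17.6% down theirs.

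The site with the earliest TTF-1 place at 0 h, 64033151 to 64034499, had no Smad peak at all. TTF-1 was number 822 at 1.5 h and 642 at 0 h, 1249 and 1299 bp wide. It was the only one of the 11 ROR1 sites with TTF-1 that lacked Smad3.

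Smad3 was called in siTTF-1 cells and not in siControl cells at 7 ROR1 sites, so 7 of the 13 siTTF-1 peaks, near the 49.1% of all siTTF-1 peaks. Of these, 4 had no TTF-1 peak, at 63984351 to 63984849, 64132301 to 64132749, 64410301 to 64410799 and 64410951 to 64411299, with numbers 8165, 11679, 12825 and 11785 in the siTTF-1 list. The other 3 were TTF-1 sites, at 64207551 to 64208599, 64277851 to 64278249 and 64421801 to 64422899, with siTTF-1 numbers 12368, 3610 and 7365. At 64277851 the Smad3 peak stood early while the TTF-1 0 h peak was number 30651 of 31083 and no TTF-1 peak was called at 1.5 h. At 64244851 to 64245599 TTF-1 was called at 0 h alone (17519), with Smad3 at number 5373 in siTTF-1 cells and 6089 in siControl cells. The annotation places ROR1 between PGM1 and UBE2U, and an antisense gene, ROR1-AS1, overlaps it.

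The DUSP6 window held the TTF-1 and Smad3 peaks that stood nearest the head of their lists among the 5 genes. TTF-1 had 3 peaks at 1.5 h and 6 at 0 h, and 4.27% and 0.897% of tiles held at least as many. Smad3 had 3 peaks in siTTF-1 cells and 5 in siControl cells, and 2.43% and 0.158% of tiles did.

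At 88288301 to 88290349 TTF-1 was number 444 at 1.5 h and 277 at 0 h, 1949 and 2049 bp wide, the widest TTF-1 peaks of the 5 windows. Smad3 was number 848 in siTTF-1 cells and 184 in siControl cells, 649 and 999 bp wide. The Smad3 centre lay 425 bp from the TTF-1 1.5 h centre in siControl cells, the greatest offset among the 16 such peaks, so the narrower Smad3 peak covered one flank of the broad TTF-1 peak.

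A second site 3.15 kb further on, 88293501 to 88294499, had TTF-1 at number 341 at 1.5 h and 224 at 0 h, 949 and 999 bp wide. Smad3 there was number 13481 of 14145 in siTTF-1 cells and number 1196 of 8941 in siControl cells, 599 and 799 bp wide. Both sites thus combined TTF-1 peaks no more than 2.09% down their lists with Smad3 in both conditions, and they differed in where the siTTF-1 Smad3 peak stood, near the head of its list for the first (848) and 95.3% down it for the second.

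The other DUSP6 Smad3 peaks lay together at 88266551 to 88271449. The peak at 88270151 to 88271449 was called in both conditions, at number 12004 in siTTF-1 cells and 3970 in siControl cells, 649 and 1299 bp wide, with TTF-1 at 0 h alone (15209). The peaks at 88266551 to 88267499 (number 5237) and 88268551 to 88269399 (number 4179) were called in siControl cells alone. At 88266551 TTF-1 was number 20954 at 1.5 h and 18368 at 0 h, and 88268551 was the only Smad3 siControl peak of the 5 windows with no TTF-1 peak at either time. TTF-1 was called alone at 88252551 to 88253249 (20202) and 88292201 to 88292599 (16444), both at 0 h. A readthrough gene, POC1B-DUSP6, overlaps DUSP6 in the annotation, and KITLG and POC1B are its protein-coding neighbours. Peaks of this window were not assigned to any of these genes.

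The MYBPH window had the most TTF-1 peaks per Mb of window of the 5. TTF-1 had 8 peaks at 1.5 h and 8 at 0 h in 45.8 kb, or 133.3 peaks per Mb each, and 0.0614% and 0.198% of tiles of the same length held at least as many. Smad3 had 2 peaks in siTTF-1 cells and 2 in siControl cells, and 6.43% and 3.74% of tiles did. TTF-1 was present at all 8 sites of the window, and 5 of them had no Smad3.

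The MYBPH TTF-1 peaks stood later in their lists than those of ROR1. Their median place was 51.5% of the list at 1.5 h and 38.0% at 0 h, against 8.59% and 11.3% for the ROR1 peaks. The earliest was at 201425001 to 201426249, with number 5315 at 1.5 h and 3665 at 0 h and widths of 1149 and 1249 bp, and it had no Smad3. Density and place in the list therefore ordered these windows differently.

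The Smad3 peak shared by both conditions lay at 201413101 to 201414199. Smad3 was number 1532 in siTTF-1 cells and 421 in siControl cells, 999 and 1049 bp wide, and TTF-1 was number 6561 at 1.5 h and 6597 at 0 h, 1099 bp wide at both times. The 4 peaks had almost the same edges, and the siTTF-1 centre lay 0 bp from that of TTF-1 0 h. At 201433151 to 201433999 Smad3 was called in siControl cells alone (3851), with TTF-1 at 9487 at 1.5 h and 6328 at 0 h. At 201389201 to 201390649 it was called in siTTF-1 cells alone (12562), with TTF-1 at 12451 and 15509, and its centre lay 525 bp from that of TTF-1 0 h, the greatest distance among the 15 such peaks.

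The remaining MYBPH sites held TTF-1 without Smad3. Both times were called at 201388201 to 201389099, where 2 peaks at 1.5 h (16090 and 18216) fell on 1 peak at 0 h (19570), at 201391701 to 201392749 (6316 and 8119) and at 201422501 to 201423149 (21117 and 21316). The site at 201411651 to 201411999 was called at 0 h alone, at number 29065. CHI3L1, which encodes a chitinase-like secreted protein, overlaps MYBPH in the RefSeq annotation, and ADORA1 and CHIT1 are its protein-coding neighbours, so these peaks cannot be assigned to MYBPH from their position in the window.

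The OCLN window held 5 TTF-1 peaks at 1.5 h and 6 at 0 h in 26.2 and 28.8 kb, and 4.15% and 5.31% of tiles held at least as many. Smad3 had 1 peak in siTTF-1 cells and 3 in siControl cells, and none of them overlapped between the conditions, while 49.1% of all siTTF-1 peaks and 19.2% of all siControl peaks were without such an overlap (26% and 36.3% of siControl peaks in the last 2 steps of 20% of the list, where these 3 stood). For siControl 4.02% of tiles held 3 or more peaks, and for siTTF-1 30.4% held a peak.

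The earliest TTF-1 site, 68859401 to 68860349, was number 1290 at 1.5 h and 1256 at 0 h, 849 and 949 bp wide. The siControl Smad3 peak there was number 6355, 249 bp wide and centred on both TTF-1 peaks. At 68849151 to 68850049 TTF-1 was number 4222 at 1.5 h and 2148 at 0 h and Smad3 siControl number 8477, 849 bp wide. At 68834101 to 68835099 TTF-1 was 13958 and 15099 and Smad3 siControl 7431. As at LMO3, every siControl Smad3 peak of the window stood in the last 30% of its list and on a TTF-1 site, and none was called after siTTF-1.

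The siTTF-1 Smad3 peak lay at 68852701 to 68853699, between those sites. It was number 10964 and 299 bp wide, and TTF-1 stood there at 4893 at 1.5 h and 8555 at 0 h. TTF-1 had no Smad3 at 68844401 to 68845249 (13273 at 1.5 h and 13662 at 0 h) and, at 0 h alone, at 68831501 to 68831999 (27238). A pseudogene of OCLN, OCLNP1, lies on the same chromosome, and the treatment of reads that match both copies was not stated.

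Across the windows, TTF-1 peaks called at 1.5 h were also called at 0 h, where the list is the longer of the 2. All 28 peaks at 1.5 h overlapped a 0 h peak (100%, exact Clopper-Pearson 95% interval 87.7 to 100), against 95.8% of all 1.5 h peaks. Of the 36 peaks at 0 h, 27 overlapped a 1.5 h peak (75%, 57.8 to 87.9), against 65.3% of all 0 h peaks and 79.2% when these were weighted to the steps of 20% of the list in which the window peaks stood. Both shares were near those of the whole lists, and the intervals cover counting error only, since peaks of a window are not replicates. With the lists shortened to equal length, 17 of 18 window peaks (94.4%) overlapped in either direction. Over the shortened lists 83.9% of 0 h peaks and 84.2% of 1.5 h peaks did. All 14 window peaks of the first 20% of the 0 h list were called again, as were 6215 of all 6217 there, and the 9 that were not called at 1.5 h (against 34.7% of all 0 h peaks) stood at numbers 14737 to 30651. They were 1 each at LMO3, MYBPH and OCLN and 3 each at ROR1 and DUSP6.

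The difference in width between the 2 times was near that of the whole lists. Of 27 matched peaks, 16 were narrower at 1.5 h, 7 were wider and 4 were equal, with a median difference of -50 bp, and over all 20303 matched peaks 53.2% were narrower, 26.7% were wider and the median was also -50 bp. The TTF-1 peaks of the windows had median widths of 849 bp at 1.5 h and 874 bp at 0 h, against 599 bp for all peaks at 1.5 h and a lower value at 0 h. Their median places were 24.8% down the list at 1.5 h and 32.1% at 0 h, against 50% for any whole list.

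**Figure D3:**
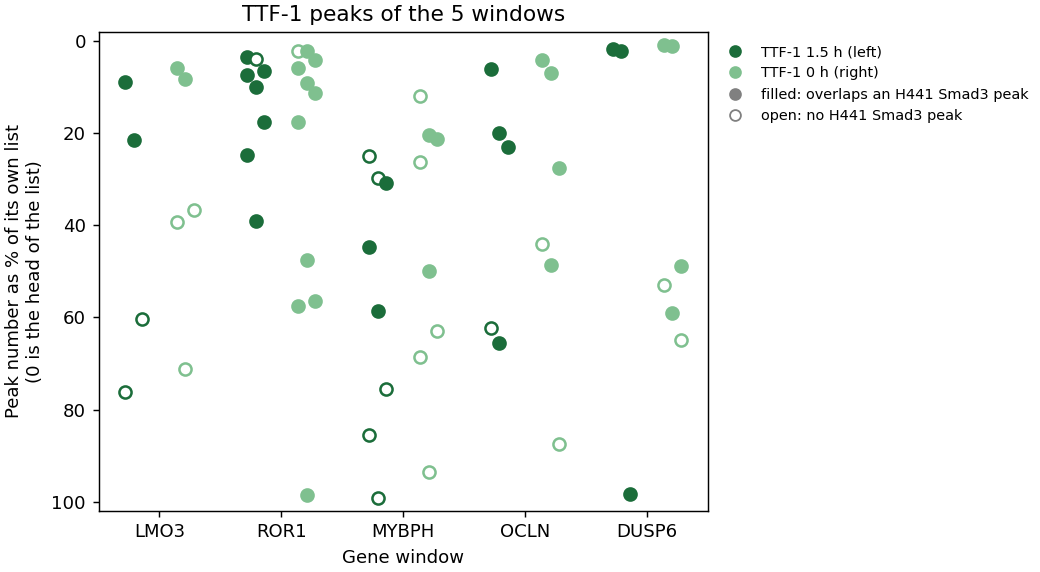
Place of each TTF-1 peak in its own list, as the peak number in percent of the list length (y axis, head of the list at the top), for TTF-1 1.5 h (left in each window) and TTF-1 0 h (right). Filled points overlap an H441 Smad3 peak, and ROR1 and DUSP6 hold the peaks nearest the head, while the 8 MYBPH peaks at 1.5 h start at number 5315 and run to 21117 of 21291.

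About as many siControl Smad3 peaks of these genes were called again after siTTF-1 as were not. Of 19 siControl peaks, 10 overlapped a siTTF-1 peak (52.6%, 28.9 to 75.6), against 80.8% of all 8941 siControl peaks, with the siTTF-1 list the longer of the 2. The 9 that did not, against 19.2% of all, were 2 at LMO3, 1 at ROR1, 1 at MYBPH, 3 at OCLN and 2 at DUSP6. All 9 are in the list of siControl-only Smad3 peaks that the authors deposited, which by its definition holds every such peak. ROR1 kept 6 of 7, DUSP6 3 of 5 and MYBPH 1 of 2, while LMO3 kept 0 of 2 and OCLN 0 of 3. Without the ROR1 window 4 of 12 were kept (33.3%), without LMO3 10 of 17 (58.8%) and without OCLN 10 of 16 (62.5%).

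The retained peaks stood nearer the head of the siControl list. All 5 window peaks of the first 20% of the list were kept, against 96% of all peaks there, and in the next 4 steps of 20% the windows kept 2 of 3, 2 of 5, 1 of 3 and 0 of 3, against 90.1%, 80.1%, 74% and 63.7% of all peaks. When the whole list was weighted to the steps in which the window peaks stood, 82.3% were kept, so the window share was also below that of peaks at like places. Among the siControl peaks with TTF-1 1.5 h, 8 of 16 in the windows were not called after siTTF-1, against 20.7% of 7350, and among those without, 1 of 3, against 12.4% of 1591. With 1 library a condition and neighbouring peaks of the same gene among the 19, this difference was not tested.

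**Figure D4:**
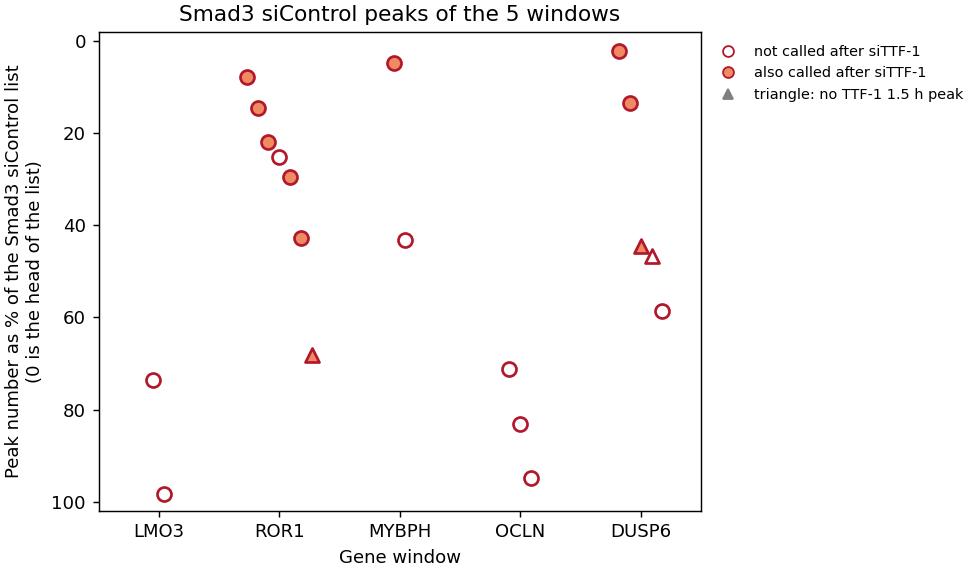
Place of each Smad3 siControl peak of the windows in its list (y axis, peak number in percent of the list length, head at the top), filled where a Smad3 siTTF-1 peak overlapped it and open where none did. The LMO3 and OCLN peaks are all open and lie between 71.1% and 98.4%, while the 5 peaks of the first 20% are all filled.

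The retained Smad3 peaks were mostly narrower in siTTF-1 cells. Of the 10 matched peaks, 7 were narrower in siTTF-1 cells than in siControl cells and 3 were wider, with a median difference of -125 bp. Over all 7223 matched siControl peaks, 31.4% were narrower and 53.1% wider, with a median of 50 bp. All 3 at DUSP6 were narrower, with differences of -650, -350 and -200 bp, as was the peak at MYBPH, while at ROR1 3 were narrower and 3 were wider. The 3 wider ones were at the sites that start at 64131201, 64244851 and 64371201, with differences of 250, 150 and 100 bp.

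**Figure D5:**
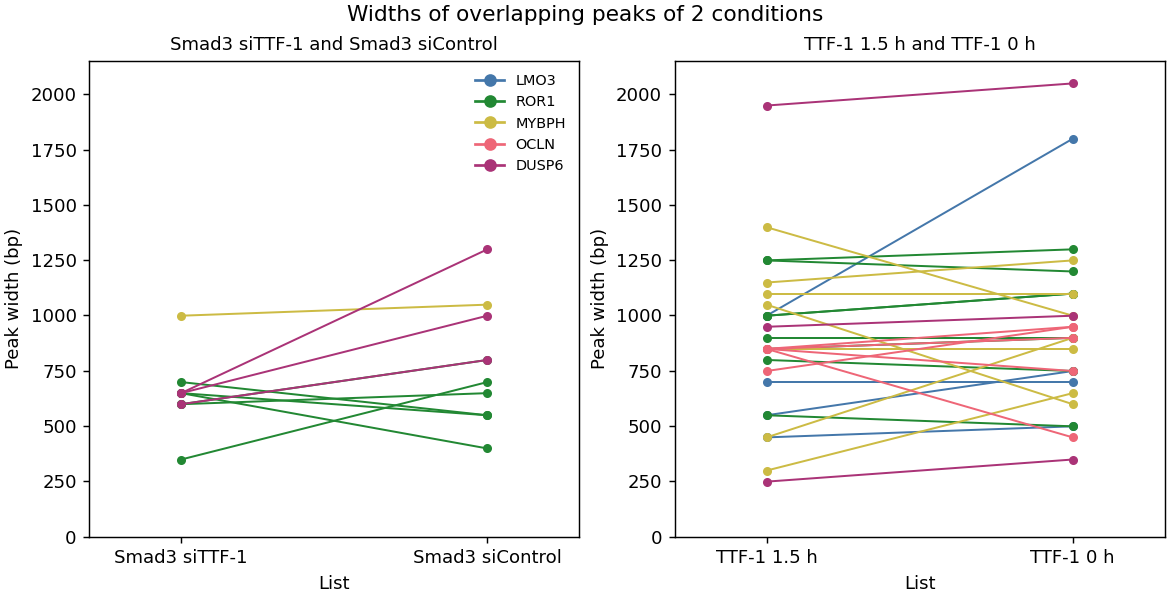
Widths in bp of overlapping peaks, with Smad3 siTTF-1 left and siControl right in the first panel and TTF-1 1.5 h left and 0 h right in the second. Lines join matched peaks and colours mark the gene, and the DUSP6 Smad3 peaks all lie between 599 and 649 bp in siTTF-1 cells, against 799 to 1299 bp in siControl cells.

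Smad3 peaks called in siTTF-1 cells alone lay mostly at ROR1, whose window is 470 of the 870 kb. Of 19 siTTF-1 peaks, 9 had no siControl peak, against 49.1% of all 14145, and these were 7 at ROR1, 1 at MYBPH and 1 at OCLN. A TTF-1 0 h peak was present at 5 of these 9, against 37.5% of 6944, and at all 10 retained peaks (50.9% of the whole list was retained), against 86.7% of 7201. None of the 19 had a Smad4 siTTF-1 or an A549 peak, while over the whole list 12.4% of retained and 5.54% of siTTF-1-only peaks had Smad4 and 14.6% and 5.92% had A549. With windows narrowed by 10% at either end, 15 siTTF-1 peaks were left, of which 10 had a siControl peak. The peaks dropped were all siTTF-1-only peaks near the edges of the ROR1 window.

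Most Smad3 peaks of the windows lay on TTF-1 sites. In siTTF-1 cells 15 of 19 Smad3 peaks had a TTF-1 0 h peak (78.9%, 54.4 to 93.9), against 62.5% of the list. In siControl cells 16 of 19 had a TTF-1 1.5 h peak (84.2%, 60.4 to 96.6), against 82.2%. These shares use TTF-1 lists of different length. With TTF-1 0 h for both, 18 of 19 siControl peaks had TTF-1, against 15 of 19 siTTF-1 peaks. The whole lists had 7839 of 8941 and 8847 of 14145. With TTF-1 1.5 h, 8 of the 10 retained and 3 of the 9 siTTF-1-only peaks had TTF-1, against 80.9% and 26.4% over the whole list. The 4 siTTF-1 peaks without TTF-1, against 37.5% of the list, were all at ROR1. With windows narrowed by 10% at either end, 14 of 15 siTTF-1 peaks had a TTF-1 0 h peak. Median centre distances were 75 bp for siTTF-1 Smad3 with TTF-1 0 h and 37.5 bp for siControl Smad3 with TTF-1 1.5 h, against 50 bp over all peaks in both cases.

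Seen from TTF-1, Smad3 was present at 16 of 28 TTF-1 1.5 h peaks in siControl cells (57.1%, 37.2 to 75.5), against 34.3% of all 1.5 h peaks and 43.5% when these were weighted to the same steps of 20% of the list. In siTTF-1 cells it was present at 15 of 36 TTF-1 0 h peaks (41.7%, 25.5 to 59.2), against 28.5% of all and 33.3% with the same weights. ROR1 held most of these, with 9 of its 11 TTF-1 0 h peaks, and without ROR1 the share was 24%. By gene, Smad3 siControl was at 3 of 3 TTF-1 1.5 h peaks of DUSP6, 6 of 8 of ROR1, 3 of 5 of OCLN, 2 of 4 of LMO3 and 2 of 8 of MYBPH. The siControl and siTTF-1 shares of this paragraph rest on TTF-1 lists of different length, so they are not like for like.

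The sites fell into 10 patterns of lists. TTF-1 at both times was found alone at 8 of the 42 sites, against 29.9% of all 37950 sites, with Smad3 in both conditions at 8, against 11.6%, and with Smad3 in siControl cells alone at 8, against 3.73%. The last pattern was present in every window, with 2 sites at LMO3, 1 at ROR1, 1 at MYBPH, 3 at OCLN and 1 at DUSP6. TTF-1 at both times with Smad3 in siTTF-1 cells alone was found at 3 sites, against 3.95%. TTF-1 at 0 h was alone at 5 sites, against 24%, with Smad3 in siTTF-1 cells alone at 2, against 2.18%, and with Smad3 in both conditions at 2, against 1.2%. Without TTF-1 there were 4 sites of Smad3 in siTTF-1 cells alone, against 9.76%, 1 in siControl cells alone, against 0.306%, and the 1 Smad4 site, against 0.711%.

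Smad3 of A549 cells, the line without TTF-1, had 0 peaks in the 5 windows. Tiles of these lengths held an A549 peak in 3.87% of cases for MYBPH and DUSP6, 7.52% for OCLN, 8.38% for LMO3 and 21% for ROR1, so windows without an A549 peak were the rule in a list of this length. The nearest lay 9.6 kb before the ROR1 window, at 63969801 to 63970399 (number 1539). Smad4 siTTF-1 peaks were present in 2.89% of tiles for MYBPH and DUSP6, 5.92% for OCLN and 18.8% for ROR1, and the single Smad4 siControl peak of the series lay outside the windows.

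Peaks also lay outside the edges of the windows. Within 50 kb outside the edges, OCLN had 0 peaks of any list. At MYBPH a TTF-1 site lay 3.6 kb after the window (number 19568 at 1.5 h and 12943 at 0 h), and a Smad3 siTTF-1 peak (7906) lay 8.2 kb before it on a TTF-1 1.5 h peak (20492), while the nearest peak inside lay 6.0 kb from an edge. At DUSP6 a site 8.7 kb after the window had TTF-1 (18524 at 1.5 h and 19838 at 0 h) and Smad3 in both conditions (2360 in siTTF-1 cells and 4698 in siControl cells). Outside the LMO3 window there were TTF-1 peaks alone, 2 at 1.5 h and 3 at 0 h.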

How the data were processed

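Peak lists of 7 ChIP-seq libraries were used. Per the labels, the authors called peaks on single libraries at the false discovery rate limits given above. Per the submitters' processing notes, hg18 was the build. The aligner and caller were not given in the sources used here. In the deposited lists all starts are multiples of 50 bp, and the deposited score, 1000 throughout, was not used. Starts were raised by 1, and 1 track line was skipped. The authors also deposited 3 Smad3 subsets, of which the 1718 siControl peaks without a siTTF-1 peak were recovered in full.

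Overlap meant at least 1 bp shared, matched peaks were those with most shared bases, and sites were unions of overlapping peaks over all lists. Shares have exact Clopper-Pearson 95% intervals, which cover counting error only. Tiles of each window's length were laid end to end on every chromosome up to the last peak of any list, and gaps in the assembly were not removed. No test was made, since each group had 1 library. The genes, windows and lists were chosen with earlier results of these data known. The rule for named peaks gave, per window, the lowest-numbered and widest peak of each list and up to 8 sites that combine TTF-1 and Smad3 or differ between conditions, and the other sites are given too. Genes other than the 5 were not analysed because no hg18 annotation was used here, and the planned counts at 10 further TTF-1 target genes were not run. Motifs were searched in RefSeq promoters. Alternatives were other overlap rules, shortened or merged lists, other window edges and leaving out each window. Overlap code was tested on shifted lists, and all 16 counts equalled those of bedtools 2.31.1. Python 3.11.15, NumPy 2.4.6, SciPy 1.17.1 and matplotlib 3.10.9 were used.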

Additional observations from a re-analysis of the deposited data

How the results depend on the processing

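Of 104 shares recomputed under other settings, 101 stayed within the interval of the value given, and of 67 counts 57 stayed within 1.5 times. The intervals were wide, such as 28.9 to 75.6 for the siControl Smad3 peaks kept, so staying within them is a weak check. With the 4 TTF-1 and H441 Smad3 lists shortened to 8941 peaks by peak number, 94.4% of the TTF-1 0 h peaks of the windows were called at 1.5 h, and the windows held 18 TTF-1 peaks at each time and 10 Smad3 siTTF-1 peaks. Without the ROR1 window, 100% of the Smad3 siTTF-1 peaks had TTF-1 0 h, 24% of the TTF-1 0 h peaks had Smad3 siTTF-1, and Smad3 had 6 siTTF-1 and 12 siControl peaks. With the wider 50% of each list, 12 Smad3 peaks remained in each condition and 0 Smad4 siTTF-1 peaks, and without the LMO3 window 0 Smad4 siTTF-1 peaks were left. With windows widened by 25 kb there was 1 A549 peak. By construction these settings use fewer peaks, fewer genes or longer windows. The share of siControl Smad3 peaks kept after siTTF-1 ranged from 33.3% to 62.5% over the 13 alternatives, below the whole list under the same setting each time (67.1% to 81.8%). The alternatives use mostly the same peaks, so they are not independent of each other. No paired analysis was possible because each group had 1 library. Depth limits what was called, and an uncalled peak does not show that a factor was absent.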
